A study of Mus musculus with 24 samples.

Results

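The comparison concerns a late step of a bisulfite time course on mouse mitochondrial DNA (mtDNA), from 40 to 60 min of treatment. It was followed within 5 preparations that each have a library at both durations: ESC 1, ESC 2, brain 1, liver 1 and synthetic. These are 10 of the 24 samples of the series, chosen by their labels for preparation and duration. ESC 1 and ESC 2 are independent preparations of mtDNA from the embryonic stem cell line E14, which was grown on feeder cells in 2i-LIF medium, a medium with a cytokine and inhibitors of GSK-3β and MEK. Brain 1 and liver 1 come from C57BL/6J mice, whose ages the labels do not give, and synthetic is PCR-generated mtDNA, labelled C57BL/6J, which carries no 5-methylcytosine (5mC). Native mtDNA was extracted from highly purified, benzonase-treated mitochondria and cut open with a restriction enzyme before the treatment, and the synthetic molecule imitates the cut native one. Source, culture and genetic background thus differ between the groups, and all of them were treated with bisulfite in the presence of added λDNA. Each preparation has a single library at each duration, so the 5 preparations are the only replicates, synthetic mtDNA has none, and a difference between brain and liver here is a difference between a pair of preparations.

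Bisulfite turns unmodified cytosines of single-stranded DNA into uracils, which are read as thymine, and leaves 5mC as cytosine. The share of reads that still show a cytosine is the unconversion rate, and it counts 5mC together with cytosines that escaped the reaction. The study's methods set aside reads in which nearly all cytosines were unconverted, and the values analysed here still hold such reads. In mt-Nd6 on the L strand, for example, the mean rate over sites was 98.4 to 99.8% in the 10 libraries, which reads with a sizeable share of converted cytosines cannot give. The L-strand rates below are therefore not rates after that exclusion. According to the supplement of the study, such L-strand reads could also be copies of cytosine-free H-strand fragments made during library construction, and their part in the L-strand rates was not tested. A cytosine that escaped by slow reaction can still be converted when the treatment goes on, while 5mC stays. The mitochondrial genome is a compact circle whose strands differ in base composition, with the cytosine-rich light (L) strand facing the guanine-rich heavy (H) strand. It encodes subunits of respiratory complexes I, III, IV and V, the ribosomal RNAs mt-Rnr1 and mt-Rnr2 and 22 tRNAs, and its control region holds the origin of H-strand replication and the promoters. Positions below are those of the mm10 mtDNA sequence, and the L strand is the strand of that sequence.

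For every cytosine the files give the percent of unconverted reads and the coverage, the number of reads over it. The files list 5829 cytosines, of which 3890 belong to the L strand and 1939 to the H strand. The 10 libraries hold 783281 to 2260572 base calls. Coverage was uneven between strands, with library medians of 12 to 49 reads for L-strand cytosines but 207 to 631 reads for H-strand cytosines. The depth also differed within pairs. Calls at 60 min were 0.508 times those at 40 min on the L strand of ESC 1 and 2.41 times in synthetic mtDNA. A site was used in a pair if it had a coverage of 10 or more in both of its libraries. This left 2258 L-strand sites in ESC 1, 2072 in ESC 2, 2326 in brain 1, 2579 in synthetic mtDNA and 2218 in liver 1, and between 1852 and 1888 H-strand sites. All 10 libraries covered 1917 L-strand and 1836 H-strand sites.

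Between 40 and 60 min the mean unconversion rate of the L strand stayed near 30% in all 5 preparations, and that of the H strand stayed below 1%. The L-strand mean over sites was 31.3% at 40 min and 30.1% at 60 min in ESC 1. It was 30.3 and 31.5% in ESC 2, and 29.6 and 30.8% in brain 1. For liver 1 the values were 31.57 and 31.99%, and for synthetic mtDNA 27.7 and 28.8%. ESC 1 alone had the lower mean at 60 min. The mean change was 0.54 ± 1.06 percentage points (SD, n = 5 preparations), from -1.26 points in ESC 1 to 1.21 points in brain 1, and the difference from 0 was smaller than the spread between preparations (exact two-sided sign-flip permutation test, p = 0.375). This design cannot give a p below 0.0625. The p-values over preparations measure the spread between these 5 preparations only. Without ESC 1 the 4 remaining changes were all positive, with a mean of 0.98 ± 0.38 points (exact sign-flip permutation test, p = 0.125, the smallest that 4 pairs allow). ESC 1 had the only negative change, so leaving it out fixed these signs and this p in advance. No rise is concluded from them.

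The H-strand mean rates at 40 and 60 min were 0.492 and 0.450% in ESC 1, 0.544 and 0.404% in ESC 2, and 0.757 and 0.556% in brain 1. They were 0.544 and 0.702% in liver 1 and 0.630 and 0.580% in synthetic mtDNA. Liver 1 alone was higher at 60 min. The mean change was -0.06 ± 0.14 points (SD, n = 5; exact sign-flip permutation test, p = 0.375). For scale, over the sites also covered at 15 min, the step from 15 to 40 min changed the H-strand mean by -9.77 points in ESC 1 and by -2.80 to -2.70 points in the other preparations. The L-strand mean changed by -6.28 points in ESC 1 and by -3.31 to -1.68 points in the others over that step, which was longer than the one from 40 to 60 min.

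**Figure D1:**
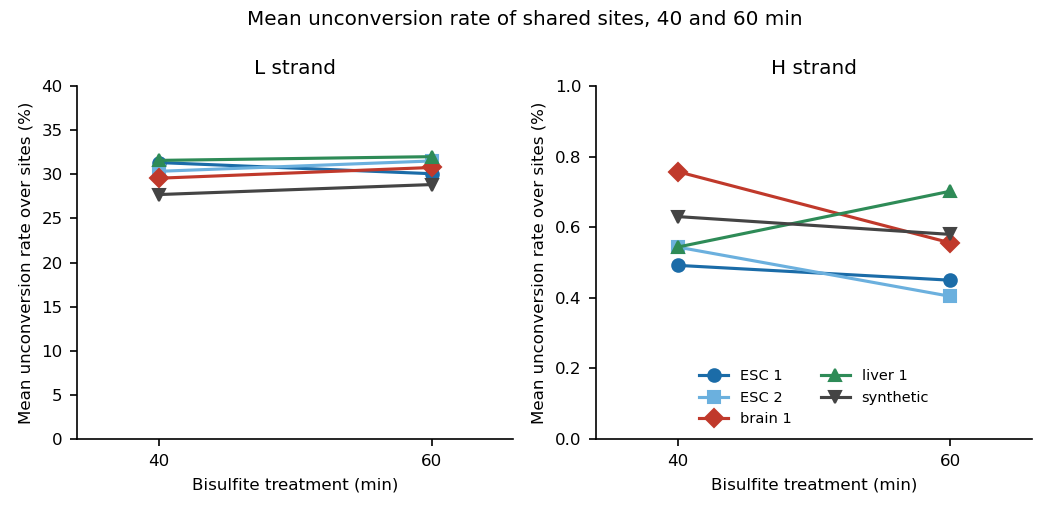
Mean unconversion rate over the sites shared by the 40 and 60 min libraries of each preparation (y axis, percent; the scales of the panels differ) against treatment time (x axis, min), L strand on the left and H strand on the right. Each line is 1 preparation with 1 library per point; on the L strand ESC 1 is the line that goes down, and on the H strand liver 1 is the line that goes up.

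Pooling the reads of all shared sites, which gives deeply covered sites more weight, changed the L-strand picture of 3 preparations. The pooled rate was 34.8% at 40 min (95% Wilson interval, 34.6 to 35.0%) and 28.0% at 60 min (27.8 to 28.2%) in brain 1, although its mean over sites was higher at 60 min. In synthetic mtDNA it was 36.2 and 33.5%, again opposite to the mean over sites, and in ESC 1 it was 35.7 and 36.5%. ESC 2 had 33.5 and 35.0%, and liver 1 had 37.4 and 38.2%. The intervals cover counting error only and are too narrow, since 1 read covers many cytosines. In brain 1 the pooled difference of -6.81 points split into 0.52 points from the rates, weighted by the 40 min coverage, and -7.33 points from the shift of reads between sites. Sites of 50% or more at 40 min took 34.2% of its L-strand calls at 40 min and 27.3% at 60 min. The gene mt-Nd6, which encodes a complex I subunit and whose covered L-strand sites were almost fully unconverted, accounted for 11.5 and 5.55% of these calls, and mt-Co1, which encodes the core subunit of complex IV and was almost fully converted, for 9.91 and 15.9%. In synthetic mtDNA the same split gave 0.51 points from the rates and -3.25 points from the shift of reads, and in ESC 1 -0.65 and 1.45 points.

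Site by site, the rates of the L strand were close to the same at both durations. Pearson's r between 40 and 60 min over the shared L-strand sites was 0.979 to 0.987 in the 5 preparations, as a description over 2072 to 2579 sites whose neighbours lie on the same reads. Between 51.2% (ESC 1) and 58.5% (synthetic) of the L-strand sites differed by at most 1 point, and 3.30% (synthetic) to 4.92% (ESC 1) differed by more than 20 points. The median change was 0.0 in every pair on both strands. Changes of neighbouring L-strand sites no more than 20 bases apart went together, with r of 0.862 to 0.894, so a gene or a stretch holds far fewer independent measurements than sites. Of the H-strand sites, 85.0 to 90.1% differed by at most 1 point, and r between durations was 0.339 to 0.868.

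The spread of the changes was wider than counting alone gives. The mean squared change, divided by what the read numbers allow if both libraries shared 1 rate, was 2.01 on the L strand of ESC 1, 1.90 in ESC 2, 1.86 in brain 1, 1.40 in synthetic mtDNA and 1.58 in liver 1. H-strand sites had ratios of 1.10 to 1.94, and ESC 1 had the highest value for each strand. A ratio of 1 would stand for counting error only.

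**Figure D2:**
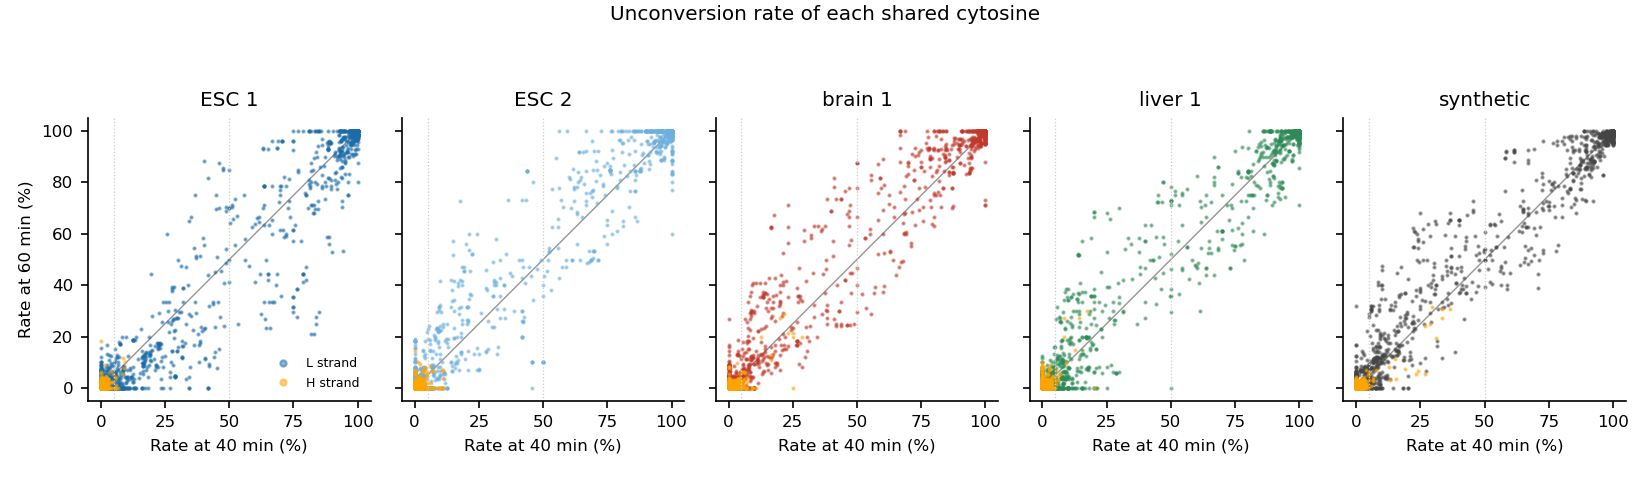
Unconversion rate at 60 min (y axis, percent) against the rate at 40 min (x axis, percent) for each cytosine covered 10 times or more in both libraries, 1 panel per preparation, with L-strand sites in the colour of the preparation and H-strand sites in orange. The grey diagonal marks equal rates and the dotted lines mark 5 and 50%; L-strand sites crowd at both ends of the diagonal and scatter widely between them, and H-strand sites stay in the lower left corner.

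Most sites also kept their class. With classes of under 5%, 5 to 50% and 50% or more, 89.3% (ESC 1) to 92.8% (brain 1) of the L-strand sites were in the same class at 40 and 60 min, and 98.0 to 99.5% of the H-strand sites. A single L-strand site, in liver 1, went from 50% or more to under 5%, and none went the other way. Of the L-strand sites of 50% or more at 40 min, 94.4% in ESC 1 and 97.0 to 97.9% in the other preparations were still at 50% or more at 60 min. Of those at 5 to 50%, 35.1% in ESC 1, 33.5% in liver 1, 20.7% in ESC 2, 19.1% in brain 1 and 17.7% in synthetic mtDNA were under 5% at 60 min. Another 6.73% (ESC 1) to 13.1% (synthetic) of this class rose to 50% or more. Over all classes of the L strand, 101 sites moved to a higher and 68 to a lower class in ESC 2. These counts were 91 and 77 in brain 1 and 125 and 86 in synthetic mtDNA. The balance was reversed in ESC 1 (84 higher, 158 lower) and liver 1 (93 and 137). Over the 1917 L-strand sites covered in all 10 libraries, 900 were under 5% and 541 were at 50% or more in every library. Only 2 of 1836 H-strand sites were at 5% or more in every library.

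The middle class had the largest mean change. In the class of 5 to 50% at 40 min, the L-strand mean was 20.3% at 40 min and 15.1% at 60 min in ESC 1 (342 sites). In ESC 2 it was 18.5 and 22.2% (256 sites), and in brain 1 18.1 and 22.8% (329 sites). Liver 1 had 15.6 and 18.4% (346 sites), and synthetic mtDNA 18.6 and 24.4% (373 sites). ESC 1 was again the preparation with the lower rate at 60 min. The sites under 5% had mean changes of -0.02 to 0.63 points, and the sites of 50% or more had changes of -1.55 to 1.34 points. These values are a description, because a class set by the 40 min rate pulls the rate at 60 min towards the middle.

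A classing that leaves the pair's own libraries out avoids this. With classes set by the mean 40 min rate of the 4 other preparations, the 5 to 50% class had changes of -6.38 points in ESC 1, 4.05 in ESC 2, 4.16 in brain 1, 4.02 in synthetic mtDNA and 4.54 in liver 1. The 4 positive values lay between 4.02 and 4.54 points, and the mean of all 5 was 2.08 ± 4.73 points (exact sign-flip permutation test, p = 0.375). In the same classing, the sites under 5% had a mean change of -0.11 ± 0.38 points (exact permutation p = 0.5625) and the sites of 50% or more one of 1.10 ± 1.09 points, positive in 4 of 5 preparations (exact permutation p = 0.1875). When the class came from the pair's own 60 min rate, the sites of 50% or more had a higher mean at 60 min in 5 of 5 preparations (2.17 ± 0.80 points) and the sites under 5% a lower one in 5 of 5 (-0.57 ± 0.50 points). Both have the same pull, in the other direction.

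The H-strand sites of 5 to 50% at 40 min were few, and as a description they were lower at 60 min in all preparations but liver 1. Their means were 6.97 and 4.0% in ESC 1 (11 sites), 7.68 and 1.81% in ESC 2 (24 sites), and 10.98 and 6.74% in brain 1 (34 sites). Liver 1 had 9.31 and 10.9% (14 sites), and synthetic mtDNA 19.4 and 12.4% (21 sites). The mean change was -3.69 ± 3.33 points in this classing. With classes from the other preparations, over 8 to 19 sites, it was -1.46 ± 5.04 points, again positive in liver 1 alone (7.02 points; exact sign-flip permutation test, p = 0.5625). With classes from the own 60 min rate the mean was 2.04 ± 4.80 points. The H-strand sites under 5% had a mean change of -0.01 ± 0.10 points with classes from the own 40 min rate, and no H-strand site was at 50% or more at 40 min.

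**Figure D3:**
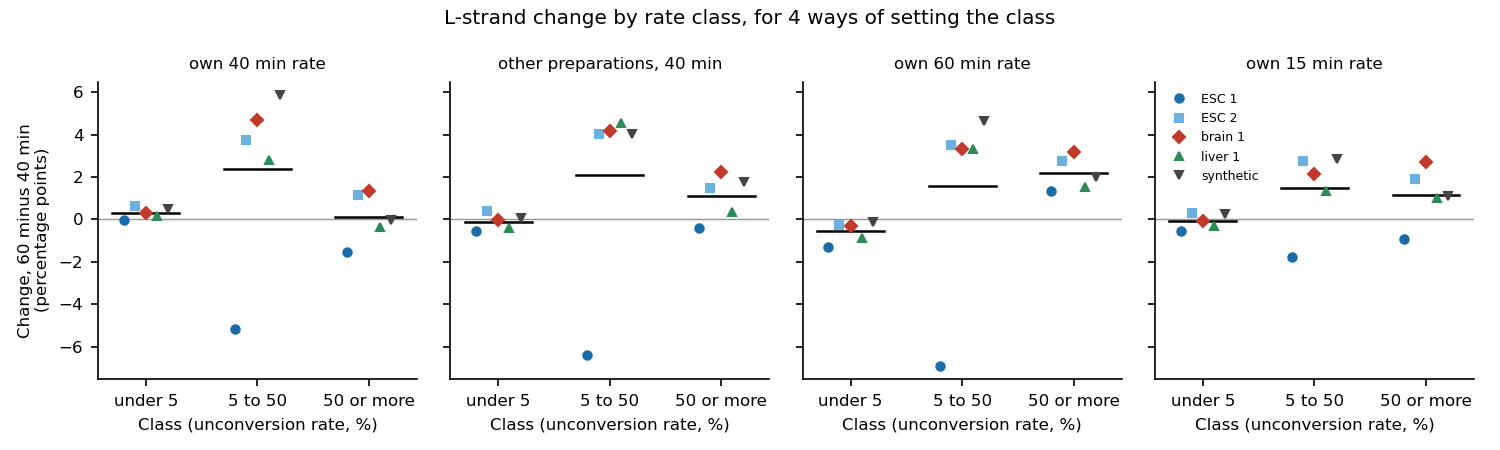
Mean change of the L-strand unconversion rate from 40 to 60 min (y axis, percentage points) by rate class (x axis, percent), with the class set in 4 ways named above the panels. Each marker is 1 preparation and each bar the mean of the 5; ESC 1 lies lowest in each class of each panel, and the mean of the class under 5% is above 0 with classes set by the pair's own 40 min rate and below 0 in the other panels.

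The 25 genes and regions with at least 5 shared L-strand sites in every pair had mean changes from -1.77 points in the control region to 5.98 points in mt-Tm, with a median of 0.16 points. The 13 others, all tRNA genes, had fewer than 5 shared L-strand sites in at least 1 pair and were not tested. For the H strand 34 genes and regions were tested, with changes from -0.39 points in mt-Ty to 0.29 points in mt-Tv. None of the 59 passed limma's moderated test with the preparation as a block at an adjusted p under 0.05 (0.0% called). Unadjusted, 1 L-strand gene and 0 H-strand genes had a p under 0.05.

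That gene was mt-Nd4 (chrM:10167-11544), which encodes a core proton-pumping subunit of complex I. Its L-strand mean was 62.2% at 40 min and 66.8% at 60 min in ESC 1 (129 sites). In ESC 2 it was 65.5 and 72.7% (119 sites), in brain 1 66.1 and 71.3% (125 sites). Liver 1 had 62.8 and 65.6% (139 sites), and synthetic mtDNA had 48.6 and 57.6% (159 sites). It was the only L-strand gene with the higher mean at 60 min in all 5 preparations, by 5.75 points with a standard error of 0.97 points, but the limma adjusted p was 0.110. Of the 25 genes and regions tested on this strand, 1 was thus higher and 0 were lower in all 5. If each direction were random, 6.25% would share it in all 5 preparations. Over the 10 alternatives run for genes, the limma adjusted p of mt-Nd4 was 0.0685 (without liver 1) to 0.952 (without the preparation block). In ESC 2, 84 of its sites were higher and 10 lower at 60 min, while in ESC 1 56 were higher and 53 lower. With reads pooled over its sites ESC 1 turned round, from 60.1% at 40 min to 53.2% at 60 min, whereas brain 1 had 47.0 and 74.7%.

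The other complex I genes had smaller means. mt-Nd2 had a mean rate over sites of 79.1% at 40 min and 78.4% at 60 min on average over the preparations, and its change of -0.65 ± 2.05 points was negative in 4 of 5. mt-Nd6 was at 99.2 and 99.5%, a change of 0.31 ± 0.54 points. mt-Nd5 had a mean change of 1.302 ± 1.59 points and mt-Nd1 one of -0.27 ± 0.96 points. In the short genes mt-Nd3 and mt-Nd4l the means were 3.02 ± 2.97 and 2.92 ± 6.80 points, each positive in 4 of 5 preparations. In mt-Nd4l the single preparations ranged from -7.60 points in ESC 1 to 10.9 points in brain 1. Over all L-strand sites of complex I genes, those of mt-Nd4 included, the change was 1.42 ± 0.90 points. It was positive in all preparations but ESC 1 (-0.18 points), with p = 0.125 in the exact sign-flip permutation test.

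Complex V had the widest spread. mt-Atp6, which encodes a subunit of the proton channel of the ATP synthase, was at 55.7 and 45.5% in ESC 1, 55.9 and 63.5% in ESC 2, and 53.8 and 64.7% in brain 1. It was at 55.2 and 51.5% in liver 1 and at 51.7 and 57.4% in synthetic mtDNA. At 40 min all 5 preparations lay within 51.7 to 55.9%, and at 60 min they lay between 45.5 and 64.7%. Its median coverage per library was 13 to 53 reads. mt-Atp8, whose covered sites are nearly all unconverted, was at 97.2 and 99.3%.

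The genes of complex IV are mostly converted, and their combined change was 0.13 ± 0.45 points. mt-Co1 was at 2.13% at 40 min and 2.06% at 60 min over 315 to 345 sites, and mt-Co3 at 3.07 and 3.79%. In mt-Co2 the 31 to 56 covered sites gave -4.80 points in ESC 1, 4.34 in ESC 2, 5.68 in brain 1, -1.66 in synthetic mtDNA and -6.01 in liver 1. mt-Cytb, the mitochondrial subunit of complex III, had a mean of 32.3% at 40 min and a change of 0.25 ± 2.56 points. The directions of mt-Co2 and mt-Cytb were mixed and their means were smaller than the spread.

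Of the ribosomal RNA genes, mt-Rnr1 had 6.58% at 40 min and 5.00% at 60 min, a change of -1.58 ± 2.10 points that was negative in all preparations but ESC 2. The change of mt-Rnr2 was 0.08 ± 0.91 points. The control region gave -6.97 points in ESC 1, -3.49 in ESC 2, -1.44 in brain 1, 3.60 in synthetic mtDNA and -0.53 in liver 1, so that the 4 native preparations lay below the synthetic one. Placing 1 preparation of 5 apart cannot give a permutation p below 0.2. The tRNA genes together were at 4.69% at 40 min, with a change of 0.81 ± 0.88 points. Among them mt-Tm and mt-Th had the largest means, 5.98 ± 7.02 points over 6 sites and 5.87 ± 7.13 points over 13 sites, each with 1 preparation of the opposite sign (liver 1 and ESC 1, respectively).

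**Figure D4:**
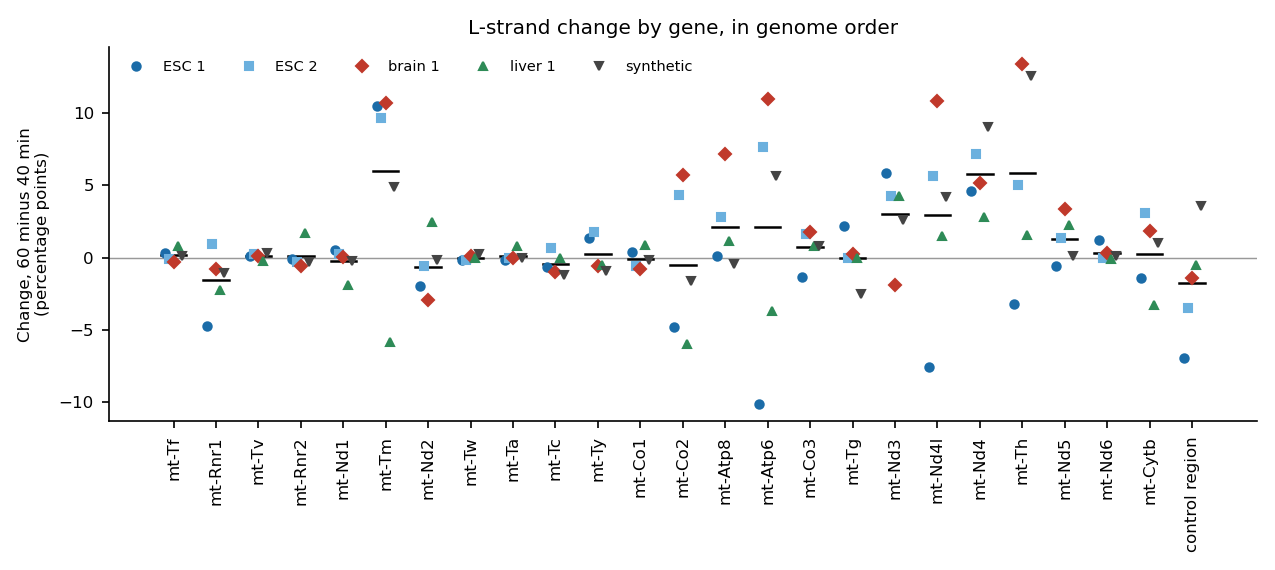
Mean change of the L-strand unconversion rate from 40 to 60 min (y axis, percentage points) in the 25 genes and regions tested (x axis, in genome order). Each marker is 1 preparation and each bar the mean of the 5; mt-Nd4 is the gene with all 5 markers above 0, and mt-Atp6, mt-Nd4l, mt-Th and mt-Tm are spread over more than 15 points.

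The H-strand means of the gene groups were all close to 0. The change was -0.06 ± 0.07 points in the complex I genes, -0.02 ± 0.16 points in the complex III gene, -0.09 ± 0.13 points in the complex IV genes and -0.11 ± 0.12 points in the complex V genes. It was 0.02 ± 0.12 points in the control region, -0.04 ± 0.34 points in the rRNA genes and -0.01 ± 0.39 points in the tRNA genes. The genes mt-Nd4 and mt-Atp8 were lower at 60 min in all 5 preparations. Of the 34 genes and regions tested on the H strand, 2 were thus lower and 0 higher in all 5. Random directions would give 6.25%. mt-Nd4 had a mean change of -0.07 ± 0.07 points on this strand, and mt-Atp8 one of -0.05 ± 0.03 points, with 135 and 12 sites. The highest means were those of mt-Tv, mt-Tp (0.29 ± 0.28 points) and mt-Ti (0.20 ± 1.74 points), and the lowest those of mt-Ty, mt-Tt (-0.38 ± 0.42 points) and mt-Tl2 (-0.32 ± 0.78 points). All 6 are tRNA genes with 7 to 11 covered H-strand sites, and none had a limma adjusted p under 0.664.

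Within single pairs, Fisher's exact test on the reads of the 60 and 40 min libraries called 12 of 4111 sites in ESC 1 (0.292%), 0 of 3924 in ESC 2 (0.0%), 27 of 4204 in brain 1 (0.642%), 10 of 4079 in liver 1 (0.245%) and 0 of 4467 in synthetic mtDNA (0.0%), with p-values adjusted over both strands of a pair. The test compares 2 libraries, not the durations. In the pairs without a call, 101 L-strand and 18 H-strand sites of ESC 2 and 112 L-strand and 37 H-strand sites of synthetic mtDNA had an unadjusted exact p under 0.05. With the adjustment made within the strand, ESC 2 had 20 calls, all higher at 60 min, of which 14 lay at 14805 to 14883 in mt-Cytb (16.7 to 22.4 points) and 6 at 10026 to 10055 in mt-Nd4l (14.7 to 19.2 points). The mt-Cytb calls from 14805 to 14818 each had 4 unconverted of 21 to 24 reads at 60 min, and 0 at 40 min. With the deeper library of each pair scaled down to the coverage of the other, 2 calls were made in ESC 1, 11 in brain 1 and 6 in liver 1. Of the 49 calls, 42 concerned L-strand sites and 7 H-strand sites. None of the 42 L-strand calls was at a CG, a context that made up 6.41% of the L-strand sites tested in the 3 pairs with calls. Of these calls 23 started at 5 to 50%, a class that made up 15.0% of those sites. The calls lay close together: 45 of 49 fell into 11 stretches of at least 2 sites no more than 20 bases apart, in which the same reads cover the sites.

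The L-strand stretches with 5 or more called sites are printed because they carry 31 of the 42 L-strand calls; each runs 10 bases past its first and last called site, 5′ to 3′ on the L strand of mm10, with the called cytosines in capitals.

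mt-Rnr1, 5 sites lower at 60 min in ESC 1, chrM:135-169: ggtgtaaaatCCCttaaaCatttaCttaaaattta
mt-Nd2, 6 sites lower in brain 1, chrM:4847-4882: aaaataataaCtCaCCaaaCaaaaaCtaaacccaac
mt-Co1, 7 sites higher in liver 1, chrM:5824-5858: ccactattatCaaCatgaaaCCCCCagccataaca
mt-Co3, 6 sites higher in brain 1, chrM:9272-9307: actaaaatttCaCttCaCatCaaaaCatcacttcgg
mt-Cytb, 7 sites higher in brain 1, chrM:14842-14892: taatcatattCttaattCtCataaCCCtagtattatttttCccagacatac

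These windows of 35 to 51 bases are poor in guanine, with 0 to 3 guanines each. All of them lie inside genes, mt-Rnr1 in a ribosomal RNA gene and the others in coding sequence, and mouse mitochondrial genes have no introns.

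The largest called rise of liver 1 was at 5834 in the mt-Co1 stretch, with 22 of 84 reads unconverted at 40 min and 52 of 79 at 60 min. This stretch went in opposite directions in different preparations. Over its 7 sites the mean rate was 15.3% at 40 min and 51.9% at 60 min in liver 1, a rise of 36.7 points. In brain 1 it was 46.9 and 25.5%, and 2 of its sites (5844 and 5845) were called as falls there, with 37 of 76 and 50 of 201 reads unconverted at 5844 (Fisher's exact test, adjusted p = 0.0439). At the same site liver 1 had 13 of 93 and 46 of 88 reads (exact test, adjusted p = 6.34e-05). ESC 1 had means of 28.9 and 40.2% over the stretch, ESC 2 of 43.4 and 27.4%, and synthetic mtDNA of 41.1 and 38.4%. At the same 7 cytosines the libraries thus covered a range of 15.3 to 46.9% at 40 min and of 25.5 to 51.9% at 60 min.

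The mt-Cytb stretch was at 8.61% at 40 min and 27.4% at 60 min in brain 1, and its neighbour at 14805 to 14810, with 4 called sites, at 0.0 and 8.32%. ESC 2 had the same direction, with 8.81 and 29.6% over the 7 sites, while ESC 1 (28.7 and 14.6%) and liver 1 (16.4 and 7.20%) had the opposite one. Synthetic mtDNA had 15.1 and 12.9%. In mt-Co3 the mean was 8.37 and 35.9% in brain 1 and 15.8 and 36.3% in ESC 2, against 16.2 and 11.6% in ESC 1, 15.9 and 16.6% in liver 1 and 20.1 and 20.4% in synthetic mtDNA. The largest called rise of brain 1 was at 9289 in this stretch, from 6 of 64 to 57 of 139 reads. The stretch in mt-Nd2 fell from 93.9 to 84.9% in brain 1, at a coverage of 290 to 603 reads. At these sites the other preparations changed by -2.85 to 2.15 points.

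The stretch in mt-Rnr1 was lower at 60 min in all 5 preparations. It was at 83.6 and 24.9% in ESC 1, at 44.5 and 22.2% in ESC 2 and at 44.3 and 25.6% in brain 1. Liver 1 had 74.2 and 57%, and synthetic mtDNA 68.1 and 65.8%. Only the ESC 1 change was called, and its coverage was 59 to 68 reads at 40 min and 17 to 20 reads at 60 min. ESC 2 had 7 to 12 reads there, so that some of its sites were under the coverage minimum. In the control region, sites 16263 and 16265 of ESC 1 fell from 33.1 to 3.5% and from 34.4 to 4.1%, with the smallest adjusted p of all pairs (Fisher's exact test, 6.60e-13). The 9 other libraries had 1.2 to 12.6% at these sites, including the 60 min library of ESC 1, so the 40 min library of ESC 1 was the one that stood apart.

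**Figure D5:**
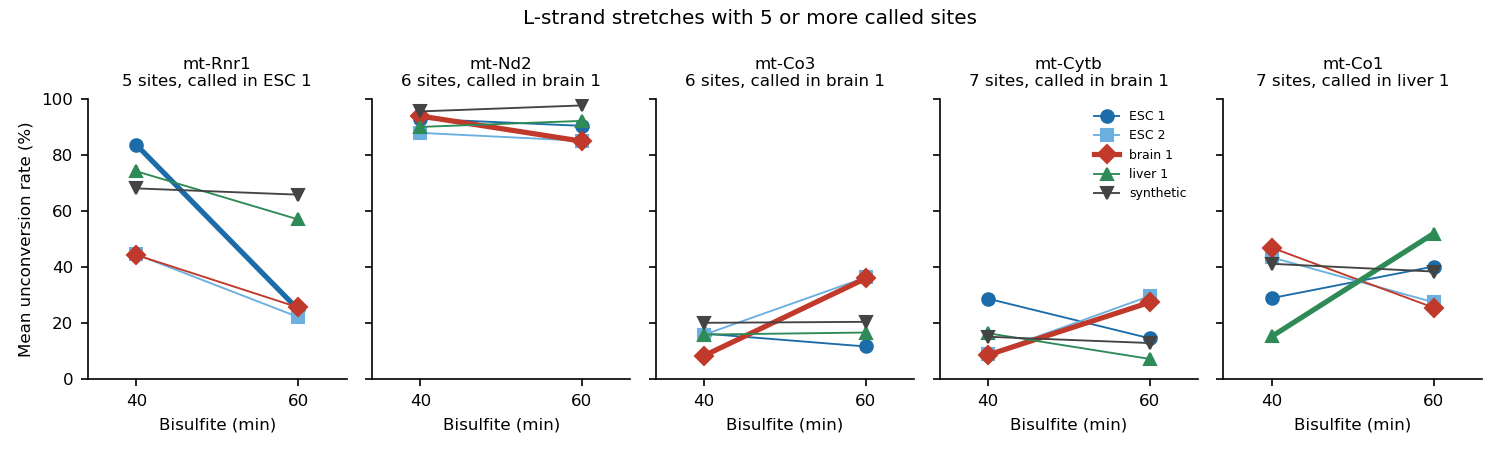
Mean unconversion rate (y axis, percent) at 40 and 60 min (x axis, min) over the called sites of the L-strand stretches with 5 or more calls, 1 line per preparation, with the preparation that was called drawn thick. The lines of mt-Rnr1 all go down, and those of mt-Co1, mt-Co3 and mt-Cytb cross.

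The 7 H-strand calls had sizes of 1.1 to 4.2 points. Site 510 in mt-Rnr1 was called in 2 pairs, with 45 of 7577 and 14 of 320 reads unconverted in ESC 1 (0.6 and 4.4%) and 12 of 1305 and 18 of 401 reads in liver 1 (0.9 and 4.5%). ESC 2 had 16 of 441 and 8 of 539 reads (3.6 and 1.5%), brain 1 had 19 of 631 and 19 of 1212 (3.0 and 1.6%), and synthetic mtDNA 17 of 519 and 33 of 1057 (3.3 and 3.1%). The number of unconverted reads thus varied between 8 and 45 while the coverage varied between 320 and 7577. In each of the 5 pairs the library with the higher coverage had the lower rate, and the part of coverage in these calls was not tested. All 5 H-strand calls of ESC 1 were rises, at sites with 7577 or more reads at 40 min.

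Across preparations, none of the 3753 sites covered in all 10 libraries passed limma's test on the logit of the rate (0.0% called), and the smallest adjusted p was 0.602. Unadjusted, 146 of 1917 L-strand and 118 of 1836 H-strand sites had a p under 0.05, or 7.62 and 6.43%. The Cochran-Mantel-Haenszel test compares the reads within each pair, adds up the differences and ignores the variation between pairs. It called 5 sites, all lower at 60 min. These were L-strand sites 145 and 147 in mt-Rnr1, sites 16263 and 16265 in the control region, where ESC 1 alone had a change of over 3 points, and H-strand site 10587 in mt-Nd4.

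Site 10587 was lower at 60 min in all 5 preparations. Unconverted reads were 9 of 407 at 40 min and 6 of 512 at 60 min in ESC 1, 11 of 401 and 3 of 481 in ESC 2, and 15 of 313 and 3 of 466 in brain 1. Liver 1 had 21 of 591 and 5 of 431, and synthetic mtDNA 10 of 342 and 13 of 803. The 40 min rates of 2.2 to 4.8% all lay above the 60 min rates of 0.6 to 1.6%, with an adjusted p of 9.01e-04 in the Cochran-Mantel-Haenszel test and of 0.602 with limma.

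Among the 718 L-strand sites with a change other than 0 in every pair, 29 were higher and 13 lower at 60 min in all 5 preparations, or 5.85% together. Among 653 such H-strand sites 13 were higher and 29 lower, or 6.43%. If each direction were random, 6.25% of sites would share it in all 5 preparations, so that the sites named next are a description. The largest mean rises were at 12134 in mt-Nd5 (18.6 ± 12.1 points) and at 10493 and 11450 in mt-Nd4 (9.90 ± 6.77 and 9.78 ± 9.27 points), all on the L strand and followed by A or T. The largest mean falls were the neighbouring sites 145, 146 and 147 in mt-Rnr1, shown above, with -25.1 ± 21.4, -24.5 ± 21.95 and -24.2 ± 21.2 points. All 6 had a limma adjusted p of 0.602 or more. The surroundings of the rising sites are printed with the cytosine concerned in capitals.

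mt-Nd5, chrM:12114-12154: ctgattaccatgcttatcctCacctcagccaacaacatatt
mt-Nd4, chrM:10473-10513: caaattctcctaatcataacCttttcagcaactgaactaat
mt-Nd4, chrM:11430-11470: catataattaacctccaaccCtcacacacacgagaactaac

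At 12134 the rates were 31.8 and 33.3% in ESC 1, 21.1 and 53.8% in ESC 2, 15.8 and 42.9% in brain 1, 15.4 and 33.3% in liver 1 and 25.0 and 38.8% in synthetic mtDNA. The 40 min libraries had 12 to 44 reads at this site. At 10493 the rates were 72.7 to 92.9% at 40 min and 89.7 to 100% at 60 min. None of these 3 sites was called in any pair.

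The changes of the single preparations had little in common. Over the 1917 L-strand sites, Pearson's r between the changes of a pair of preparations was -0.20 (ESC 1 and brain 1) to 0.40 (ESC 2 and brain 1), and over the 1836 H-strand sites -0.20 to 0.22. These are descriptions over sites that share reads. The deviation of a 40 min library from the mean of the 40 min libraries was also little related to that of the 60 min library of the same preparation, with r of -0.16 to 0.21 for L-strand sites and -0.12 to 0.12 for H-strand sites. Some libraries went more with another preparation. On the L strand, brain 1 at 40 min had r = 0.42 with ESC 1 at 60 min, against -0.16 with its own 60 min library.

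Sites that varied most between the durations lay in sequence with little guanine. The 391 L-strand sites whose change had a mean size of over 5 points had 6.41% guanine in the 41 bases around them, against 11.9% at the 1526 others. L-strand sites of under 5% at 40 min had 15.0% guanine, those of 5 to 50% had 6.73% and those of 50% or more 4.29%, on the mean over preparations. The median over sites of the mean size of change was 0.6, 8.16 and 1.74 points in these classes. The sites of 50% or more thus had the least guanine but changed little, and little guanine was not particular to the sites that varied most. These are means over overlapping windows, given without a test.

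Sequence context was compared as CG against CH, where H is any base but G. CG sites of the L strand had a mean rate of 8.35% at 40 min and 8.44% at 60 min over 127 to 177 sites per pair, and CH sites 31.6 and 32.2%. The change at CH minus that at CG was 0.47 ± 0.60 points, positive in 4 of 5 preparations (exact sign-flip permutation test, p = 0.1875). The H-strand CG sites were at 0.455 and 0.427% and the CH sites at 0.617 and 0.557%, and the changes differed by -0.03 ± 0.08 points (exact permutation p = 0.4375).

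The change in native mtDNA was set against that in synthetic mtDNA, a comparison of 4 preparations with 1 that cannot give a p below 0.2. On the L strand the native mean was 0.39 ± 1.16 points (n = 4) and the synthetic change 1.13 points, and 2 of the 4 native changes were higher than it (exact permutation test, p = 0.8). With pooled reads the difference of native minus synthetic turned from -0.74 to 1.83 points. The H-strand values were -0.06 ± 0.16 and -0.05 points (exact permutation test, p = 1.0).

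A few H-strand sites lay above the rest at both durations. Of 7 sites with a mean of 5% or more at 40 min over the preparations, site 666 in mt-Rnr1 had 5.64 and 5.90%, site 3286 in mt-Nd1 6.78 and 6.50% and site 6249 in mt-Co1 5.12 and 6.4%. Site 1766 in mt-Rnr2 had 12.2 and 9.74%, and site 1053 in mt-Tv 5.12 and 2.62%. Site 5050 in mt-Ta was at 12.2 and 10.9%, with 7.0 to 16.5% in single libraries. Site 3286 is the best covered, with 1202 to 3650 reads, and its rates were 4.6 to 9.1%. Site 14511 in mt-Cytb, with a mean of 13.3 and 9.78%, was the least steady, at 17.4 and 30% in liver 1 and 23.9 and 6.7% in synthetic mtDNA. These sites were singled out after their values were seen. A group of 12 H-strand sites at 834 to 872 in mt-Rnr1 was at 26.4 and 17.8% in synthetic mtDNA. At the same sites brain 1 had 19.6 and 13.9% (10 sites covered), ESC 2 7.34 and 0.0% (5 sites) and liver 1 3.86 and 13.7% (8 sites), with 10 to 41 reads in each of these libraries.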

How the data were processed

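The values came from PBAT libraries, in which adaptors are added by random priming after bisulfite treatment. The authors sequenced them on a MiSeq, trimmed the reads with Trim Galore and mapped them to mm10 mtDNA with Bismark, as their processing notes and methods state (no version is stated for these libraries in the sources used here). Per cytosine and library the authors deposited the percent of unconverted reads, to 1 decimal, and the coverage as a count of reads without a minimum. Rates were not corrected for conversion of the λDNA, which was not analysed here.

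Unconverted reads were computed as percent times coverage and rounded, which is inexact at high coverage (up to 12697 reads). Sites needed a coverage of 10 or more in both libraries of a pair, and rates are unweighted means over sites. Mean changes, classes and contexts were tested over preparations by exact two-sided sign-flip permutation tests, single pairs by Fisher's exact test with Benjamini-Hochberg adjustment over both strands, and sites and genes across preparations by limma 3.58.1 (R 4.3.3) with preparation as a block, on the empirical logit (offset 0.5) and on the mean percent per gene, at 0.05. Gene bounds are those of GENCODE vM21 and the control region that of RefSeq. Scripts were tested on simulated data. The pairing comes from the labels, in which both libraries of a pair are 1 preparation; the correlation of their deviations ranged from -0.16 to 0.21 (L strand) and from -0.12 to 0.12 (H strand). Of 276 pairs of libraries, 0 were identical.

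Genes were named by complex, plus the 3 highest and 3 lowest mean changes per strand. Sites were named if they were among the 3 largest rises or falls shared by all 5 preparations, or the largest called rise or fall of a pair. Others are marked as chosen after their values were seen, or follow from a test called here. The called stretches, the control region sites, H-strand site 10587 and the windows of guanine content were chosen in this way too. The members and lists were chosen with earlier results of these data known. Alternatives were other coverage minimums, pooled reads, other classings, other tests, no preparation block and leaving out each preparation.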

Additional observations from a re-analysis of the deposited data

Results flagged for a closer look

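Dixon's test, applied to the 5 preparations in 70 sets of changes, marked 4 values, where chance marks about 1 in 20. On the L strand mt-Rnr2 had a change of 1.67 points in liver 1 against -0.57 to -0.10 points in the other 4 preparations, and mt-Ta one of 0.83 points in liver 1 against -0.14 to 0.0 points. On the H strand mt-Tl2 had -1.68 points in brain 1 against -0.12 to 0.27 points. The L-strand class of 5 to 50% had -5.18 points in ESC 1 against 2.80 to 5.86 points. The part of depth in these values was not tested.

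In mt-Co1, L-strand sites 5844 and 5845 were called in opposite directions in brain 1 and liver 1, with -23.8 and 38.3 points at 5844 and -22.8 and 37.6 points at 5845. The difference between the tissues was not tested, because each has 1 pair of libraries.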

How the results depend on the processing

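Over 18 results and 148 alternatives, 123 were kept, 14 reversed and 11 counts or medians moved. A change was kept if its direction and side of the threshold stayed, and a count if it was equal or close to the main one. No alternative with an exact permutation test passed 0.05. This was fixed in advance for the paired sign-flip tests, which cannot give a p below 0.0625. The same holds for the permutation tests of native against synthetic, which cannot give one below 0.2. Only the permutation tests without the preparation pairing could have passed. For the L-strand mean change, pooled reads gave -1.27 points and the median over sites 0.0; for the H strand, the median gave 0.0 and weights by 40 min coverage, chosen after seeing the data, 0.0260. Without the preparation pairing (no replicate block) the mean changes were 1.02 and -0.07 points. Here each library was averaged over its own sites with a coverage of 10 or more, not over the shared sites. Synthetic mtDNA, for example, had 2582 such L-strand sites at 40 min and 3060 at 60 min. These values thus differ from the main ones in the sites used. Sites and genes across preparations stayed at 0 calls without the block. Leaving out each preparation gave 0.37 to 0.98 (L) and -0.11 to -0.02 (H), and 0 calls across preparations. Calls in ESC 1 (12) were 7 at coverage 20, 6 at coverage 30, 7 with a change of 10 points or more and 2 with the deeper library scaled down. In ESC 2 (0), adjustment within the strand gave 20, of which 14 were in mt-Cytb and 6 in mt-Nd4l, all higher at 60 min. Brain 1 (27) had 30 at coverage 20, 16 with 10 points or more and 11 scaled down, and liver 1 (10) had 12 at coverage 20 and 6 scaled down. The Cochran-Mantel-Haenszel test called 5 sites. L-strand sites under 5% gave -0.11 classed by other preparations, -0.57 by 60 min and -0.0815 by 15 min; those of 50% or more -0.0343 at coverage 30 and -0.19 to 0.53 leaving out a preparation; H-strand sites of 5 to 50% (-3.69) 2.04 classed by 60 min and -1.46 by other preparations, and those under 5% -0.0472 to 0.0215 leaving one out. Native minus synthetic was 1.83 with pooled L-strand reads and -0.0772 to 0.0427 (H) leaving one out. The cause of these differences was not tested.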

Other observations

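ESC 3, the preparation with libraries at 60 and 90 min, gave L-strand means of 33.8 and 34.8% over 1320 shared sites and H-strand means of 0.639 and 1.39% over 1743. It has no 40 min library and entered no comparison.

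The spread of the L-strand gene means between preparations had a median SD of 2.31 points at 40 min and 1.04 points at 60 min, but it was smaller at 60 min in only 11 of 25 genes, and without synthetic mtDNA the medians were 0.955 and 1.19 points. On the H strand they were 0.156 and 0.164 points over 34 genes.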
